A study of Homo sapiens with 6 samples.

Results

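The genes described here are 10 amino acid transporter genes on which tumour cells are known to depend: SLC7A5, SLC7A6, SLC7A11, SLC3A2, SLC7A1, SLC1A5, SLC1A4, SLC38A1, SLC38A2 and SLC38A5. They were taken by symbol from a deposited array table of 17687 genes. Each of the 10 was measured by 1 probe set, so that 10 of 10 members entered the comparison. Transcript signals were read on 6 arrays of 4175 cells, a lung-seeking variant of MDA-MB-231, itself an established human breast cancer line. All samples carried a transfected siRNA for 48 hours, beginning 24 hours after plating. In 3 samples (sicontrol) it was a control siRNA, and in 3 (siPGC1alpha) it was directed against PGC-1alpha, the coactivator encoded by PPARGC1A. The comparison asks how transcript levels respond to the siRNA against PGC-1alpha. The labels name 1 line and no separate cultures, so the p-values below measure only how far these samples spread, and that spread may be technical.

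Amino acid transporters fall into exchangers, which trade an internal amino acid for an external one, and concentrative carriers, which are driven by the sodium gradient or the membrane potential. In proliferating tumour cells the sodium-coupled carriers SLC38A1 and SLC38A2 and the exchanger SLC1A5 supply glutamine. SLC7A5 then spends neutral amino acids of this kind to bring in leucine and other essential amino acids, which activate the growth kinase mTORC1. SLC7A11 imports cystine for glutathione synthesis and pays with glutamate. SLC7A5, SLC7A6 and SLC7A11 reach the cell surface bound to the heavy chain SLC3A2. Transcription of several of these genes is known to rise through ATF4 when amino acids run short, through MYC in growing cells and, for SLC7A11, through NRF2 under oxidative stress. PGC-1alpha itself acts with nuclear receptors such as the ERR family and with NRF1.

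The start-site regions of the members are shown first because these factors bind short, known motifs. RefSeq windows (GRCh38.p14, 250 bases before to 50 bases after a transcript start) were at hand for 9 of the 10 genes, 15 windows in all, and SLC7A11 had no entry. The composite motif of ATF4 and C/EBP factors (TGATGNAA, either strand) was found in 5 of the 15 windows, in 5 genes, against 3.62% of all 35116 windows. The stretches below are 30 bases each, 5′ to 3′ on the strand of the gene, with the motif in capitals, and TTGCATCA and TTACATCA are matches on the opposite strand.
SLC1A4 (chr2:64989381-64989410, + strand): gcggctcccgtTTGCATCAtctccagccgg
SLC1A5 (chr19:46784893-46784922, - strand): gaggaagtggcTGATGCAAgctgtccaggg
SLC38A1 (chr12:46266502-46266531, - strand): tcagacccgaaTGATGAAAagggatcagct
SLC7A1 (chr13:29595663-29595692, - strand): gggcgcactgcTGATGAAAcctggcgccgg
SLC3A2 (chr11:62881719-62881748, + strand): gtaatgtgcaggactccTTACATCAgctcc
The match began 7, 97 and 4 bases before the start in SLC1A4, SLC1A5 and SLC38A1, and at base 8 and base 38 of the transcript in SLC7A1 and SLC3A2.

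The E-box bound by MYC and TFE3 (CACGTG, which reads the same on both strands) was found in 3 of the 15 windows, in 3 genes, against 7.26% of all windows. Its matches lay 130, 50 and 206 bases before the start, in the order shown, again with the motif in capitals. The SLC1A5 match belongs to another transcript start than the ATF4 motif match of that gene above.
SLC7A5 (chr16:87869620-87869649, - strand): ggccggacgacgCACGTGctccgagctggg
SLC1A5 (chr19:46787326-46787355, - strand): ggcgggagtggtCACGTGgacaggacgggg
SLC38A5 (chrX:48470449-48470478, - strand): tcctgtagcggaCACGTGgcttgcctggga
A core of the NRF2 element (TGACNNNGC, either strand) was found in 5 of the 15 windows, in SLC1A5, SLC3A2, SLC7A1, SLC7A5 and SLC7A6, against 13.3% of all windows. The ERR half-site (AAGGTCA, either strand) was in 0 of the 15 windows, against 3.92% of all windows. No match in a member overlapped one of another motif (0 overlaps). A match of letters is a description and not a binding site, and a window without one says nothing of the factor.

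Signals are given as deposited, on a scale read as log2, so that a difference of 1 is a 2-fold difference. Probe sets differ in how strongly they bind, and levels are therefore compared between samples of 1 gene and not between genes. PPARGC1A, the targeted gene, read 6.45, 6.49 and 6.49 on the control arrays and 7.95, 6.52 and 6.47 on siPGC1alpha replicates 1, 2 and 3. No array labelled siPGC1alpha read below the lowest control, so these values show no lower transcript, and no difference below can be attributed to one. Without replicate 1 the difference was 0.019 (SE 0.071, 95% interval -0.15 to 0.19), which includes small falls. On replicate 1 PPARGC1A lay 1.47 above its control mean. Genes of like brightness on the controls (6.06 to 6.70) had a median rise of 1.23 there. siPGC1alpha replicate 1 was unlike the other 5 arrays and is shown apart throughout. Pearson's r across genes was 0.585 to 0.604 between it and the others, and 0.995 to 0.996 among the others. Of 6 fixed markers of this mesenchymal line, including VIM (vimentin, control mean 12.80) and CD44 (11.04), 6 read above the 95th percentile of the negative control probe sets on the control arrays (5.36). The leukocyte marker PTPRC read 4.49, the epithelial cadherin CDH1 3.97 and the progesterone receptor PGR 2.76, all below that percentile. The mean level of the 5 measured leukocyte markers, of which 3 lay above it, was 5.56 to 5.58 on the controls, 5.45 to 5.46 on replicates 2 and 3 and 6.92 on replicate 1. For the 4 endothelial markers, of which 3 lay above it, the corresponding values were 6.12 to 6.32, 6.21 to 6.22 and 7.09. For the 8 luminal and epithelial markers, of which 6 lay above it, they were 7.44 to 7.58, 7.49 to 7.52 and 8.13, although KRT18 (-3.86) and EPCAM (-0.53) lay below their control means on replicate 1. The 6 mesenchymal markers moved the other way there, with a mean of 11.38 on each control, 11.33 and 11.35 on replicates 2 and 3 and 10.62 on replicate 1, where 4 of 6 read lower. On replicate 1 differences went with brightness over the whole table, as described below, and the marker lists differ in brightness. Their median control means were 11.36 (mesenchymal), 7.63 (luminal and epithelial), 6.63 (endothelial) and 5.56 (leukocyte). The part of brightness in these marker values, and of the markers in the results, was not tested.

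On replicates 2 and 3 the transporters read almost as they did on the controls, and on replicate 1 they did not. Replicates 2 and 3 differed from the controls by between -0.070 (SLC38A1) and 0.14 (SLC1A4) on the log2 scale, with a median of 0.014 over the 10 members against 0.0080 over all genes. Of the 10, 6 lay above 0 and 4 below, and 53.5% of all genes lay above 0. No member passed the test (0 higher and 0 lower, lowest limma adjusted p = 0.9998), and 0.0% of all genes did. At an unadjusted p under 0.05 there were 0 members, against 4.44% of all genes. The 95% intervals of the 10 ratios lay between 0.735 and 1.33, and those of the 9 members other than SLC38A5 between 0.819 and 1.28. Spread between control arrays was small, with a median SD of 0.065 over the members against 0.099 over all genes.

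**Figure D1:**
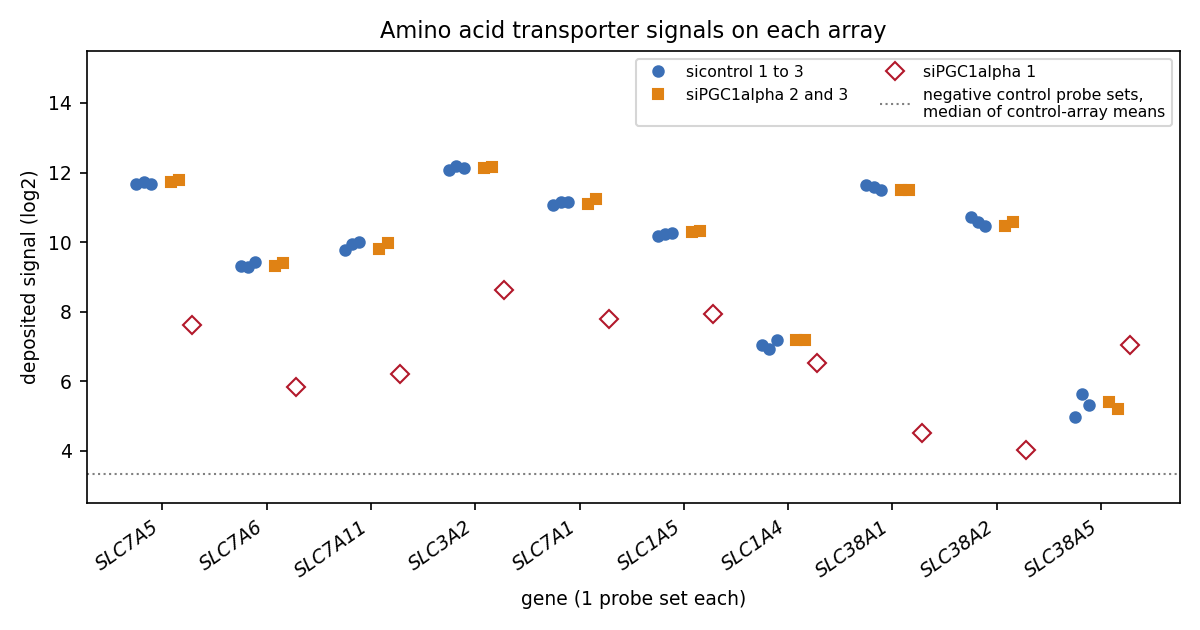
Deposited signal (log2) of each transporter gene on each array: circles are sicontrol 1 to 3, squares siPGC1alpha 2 and 3, and open diamonds siPGC1alpha 1. The dotted line is the median negative control signal on the control arrays. Circles and squares of a gene lie close together, whereas the diamond lies below them for 9 genes and above them for SLC38A5.

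Among the partners of the SLC3A2 heavy chain, SLC7A5 (LAT1, the leucine carrier, probe set TC1600011186.hg.1) read 11.66, 11.73 and 11.68 on the control arrays. On siPGC1alpha replicates 2 and 3 it read 11.72 and 11.78, and on replicate 1 it read 7.63. The control range holds replicate 2, and replicate 3 lies just above it. Without replicate 1 the difference was 0.063 (SE 0.073, 95% interval -0.11 to 0.24), a ratio of 1.04.

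SLC3A2 (CD98 heavy chain, TC1100007884.hg.1), the chaperone subunit of these exchangers, read 12.08, 12.19 and 12.14 on the controls. Replicates 2 and 3 read 12.12 and 12.16, both within the control range, and replicate 1 read 8.61. The difference without replicate 1 was 0.0080 (SE 0.075, interval -0.17 to 0.19).

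SLC7A6 (y+LAT2, TC1600008190.hg.1), which exports arginine in exchange for neutral amino acids, read 9.31, 9.30 and 9.42 on the controls. Its readings of 9.33 and 9.40 on replicates 2 and 3 fell inside that range, and replicate 1 read 5.85. Its difference without replicate 1 was 0.019 (SE 0.079, interval -0.17 to 0.21).

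SLC7A11 (xCT, the cystine and glutamate exchanger, TC0400011920.hg.1) read 9.79, 9.95 and 10.01 on the controls, a wider spread (SD 0.12) than that of SLC7A5 (0.034). Replicates 2 and 3 read 9.80 and 9.96, within the control range, and replicate 1 read 6.20. Without replicate 1 it differed by -0.035 (SE 0.098, interval -0.27 to 0.20).

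Within each array, the ratio of a light chain to SLC3A2 shows whether both changed equally. Relative to its control mean, the log2 ratio of SLC7A5 to SLC3A2 was 0.047 and 0.063 on replicates 2 and 3, above the control values of -0.016 to 0.029. The exact permutation test gave p = 0.2 (two-sided, adjusted p = 0.6 over 3 ratios), which is the smallest p that 2 against 3 arrays allow. For SLC7A6 the ratio changed by 0.011 on average (exact permutation p = 1) and for SLC7A11 by -0.043 (exact permutation p = 0.8). On replicate 1 the ratio to SLC3A2 stood at -0.54 for SLC7A5, -0.20 for SLC7A11 and 0.024 for SLC7A6. SLC7A6 and SLC7A11 were close to background on that array (11.6% and 8.50% of the negative control probe sets were brighter), which limits how far their ratios could fall. With replicate 1 included, the differences of the 3 ratios were -0.14, -0.095 and 0.015, and the exact permutation test gave p = 1, 0.4 and 1, where 3 against 3 arrays allow no p below 0.1.

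SLC7A1 (CAT1, TC1300008487.hg.1) carries arginine and lysine without a heavy chain. It read 11.07, 11.16 and 11.16 on the controls, 11.09 and 11.23 on replicates 2 and 3, and 7.78 on replicate 1. One reading lay inside the control range and one above it, and the difference without replicate 1 was 0.030 (SE 0.081, interval -0.16 to 0.22).

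The neutral amino acid exchangers of the SLC1 family were the only members that read higher on both replicates 2 and 3 than on every control. They were 2 of the 10 members, and 11.3% of all genes did the same. SLC1A5 (ASCT2, the glutamine exchanger, TC1900011004.hg.1) read 10.17, 10.24 and 10.26 on the controls. It read 10.30 and 10.31 on replicates 2 and 3 and 7.95 on replicate 1. Its difference without replicate 1 was 0.081 (SE 0.073, interval -0.092 to 0.25), a ratio of 1.06, and did not pass the test (limma adjusted p = 0.9998).

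SLC1A4 (ASCT1, an exchanger of serine, alanine and threonine, TC0200007821.hg.1) read 7.05, 6.94 and 7.17 on the controls. Both replicates 2 and 3 read 7.19, just above the highest control, and replicate 1 read 6.54. Its difference of 0.14 (SE 0.091, interval -0.080 to 0.35) was larger in size than that of any other member, a ratio of 1.10, and 21.7% of all genes differed by more. Groups that did not overlap in this direction made up 11.3% of all genes, against 2 of the 10 members.

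The sodium-coupled carriers of the SLC38 family showed no shared shift on replicates 2 and 3. SLC38A1 (SNAT1, TC1200010516.hg.1), which concentrates glutamine in the cell, read 11.63, 11.57 and 11.51 on the controls and 11.50 on both replicates 2 and 3. Its reading of 4.51 on replicate 1 was also below every control, so that it was the 1 member whose groups did not overlap over all 6 arrays. Groups apart in that direction made up 1.85% of all genes over 6 arrays and 8.42% without replicate 1. Without replicate 1 the difference was -0.070 (SE 0.075, interval -0.25 to 0.11), a ratio of 0.953.

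SLC38A2 (SNAT2, TC1200010518.hg.1), the carrier induced by amino acid shortage, read 10.71, 10.57 and 10.45 on the controls. Readings of 10.47 and 10.56 on replicates 2 and 3 lay inside the control range, and replicate 1 read 4.01. The difference without replicate 1 was -0.058 (SE 0.097, interval -0.29 to 0.17).

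SLC38A5 (SNAT5, TC0X00009611.hg.1), which carries glutamine, serine and glycine, was the member nearest to background on the controls and on replicates 2 and 3. It read 4.99, 5.63 and 5.33 on the controls (SD 0.32), and its control mean of 5.31 lay below the 95th percentile of the negative control probe sets. It read 5.40 and 5.20 on replicates 2 and 3, inside the control range, and 7.05 on replicate 1. The difference without replicate 1 was -0.014, with the widest interval of the members (SE 0.18, interval -0.44 to 0.42).

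**Figure D2:**
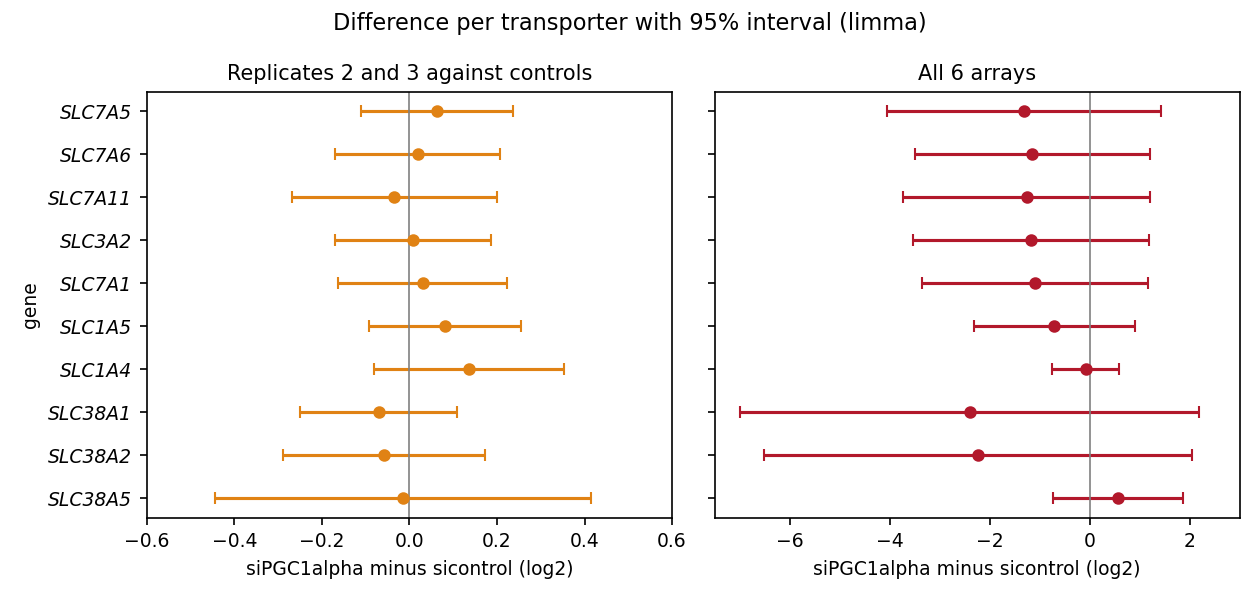
Difference of siPGC1alpha minus sicontrol per transporter on the log2 scale, with limma's 95% interval, for replicates 2 and 3 against 3 controls (left) and for all 6 arrays (right, on a wider axis). Every interval includes 0 in both panels, and those at right reach from -7.00 to 2.20 for SLC38A1.

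Over all 6 arrays the means of 9 members lay below the controls and that of SLC38A5 above, and none passed the test (0 members, against 0.0% of all genes, lowest limma adjusted p = 0.663). At an unadjusted p under 0.05 there were 0 members and 0.017% of all genes. Over all genes 61.8% of the differences lay above 0, and groups apart with siPGC1alpha higher made up 5.42%, against 0 members. The differences ranged from -2.40 (SE 1.89) for SLC38A1 and -2.23 (SE 1.76) for SLC38A2 to -0.081 (SE 0.27) for SLC1A4 and 0.57 (SE 0.53) for SLC38A5. SLC7A5, SLC7A11, SLC3A2, SLC7A6 and SLC7A1 had -1.31, -1.26, -1.17, -1.15 and -1.10 (SE 0.93 to 1.13), and SLC1A5 had -0.71 (SE 0.67). The median over the members was -1.16, and over all genes 0.19. Without replicate 1 the median of the members was 0.014.

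Replicate 1 is 1 array, and its values are described without a test. Of the 10 members, 9 read below every control array on it, where 36.8% of all genes did, and 1 read above every control, where 60.0% did. By over 1 on the log2 scale, 8 members and 25.3% of all genes lay below the control mean. The differences from the control mean were -7.06 for SLC38A1 and -6.56 for SLC38A2. The members of the SLC7 family and SLC3A2 formed a tighter group, with -4.06 for SLC7A5, -3.72 for SLC7A11, -3.52 for SLC3A2, -3.50 for SLC7A6 and -3.35 for SLC7A1. The SLC1 exchangers moved less, with -2.28 for SLC1A5 and -0.52 for SLC1A4, and SLC38A5 lay 1.73 above. Signals also spread less over the genes of this array (SD 1.66, against 2.06 to 2.09 on the other arrays). Whether its values reflect transcript levels in the cells was not tested. Each array read bulk RNA, so that fewer cells with a transcript and less of it per cell could not be told apart either.

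On replicate 1 the difference from the controls went with brightness over the whole table, and brightness is given beside the members for that reason. Genes were put into 10 groups of equal size by their control mean. Of the members, 7 fell in the brightest group (SLC1A5, SLC38A1, SLC38A2, SLC7A1, SLC7A5, SLC7A11 and SLC3A2), whose median difference on replicate 1 was -2.13. SLC1A5 lay near that median, and 46.6% of the group lay lower than it. SLC7A1, SLC3A2, SLC7A11 and SLC7A5 lay further down, with 26.4%, 23.3%, 20.4% and 16.5% of the group below them. Below SLC38A2 lay 0.565% of the group and below SLC38A1 0.226%. SLC7A6 stood at -3.50 in a group with a median of -1.34, and SLC1A4 at -0.52 in a group with a median of 1.05. SLC38A5 stood at 1.73 in a group with a median of 1.29.

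On that array SLC38A1 and SLC38A2 read at the level of background. Of the 612 negative control probe sets, 31.4% were brighter there than SLC38A1 and 43.6% brighter than SLC38A2. Background limits how far such signals can fall, and how near the differences read are to the true ones was not tested. For SLC7A6, SLC7A11 and SLC1A4 the shares were 11.6%, 8.50% and 5.39%, and for SLC38A5 3.43%. For SLC7A5, SLC7A1, SLC1A5 and SLC3A2 they were 1.14%, 0.817%, 0.654% and 0.327%. On the control arrays the share was 0% for 8 members, 0.327% for SLC1A4 and 5.88% for SLC38A5.

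**Figure D3:**
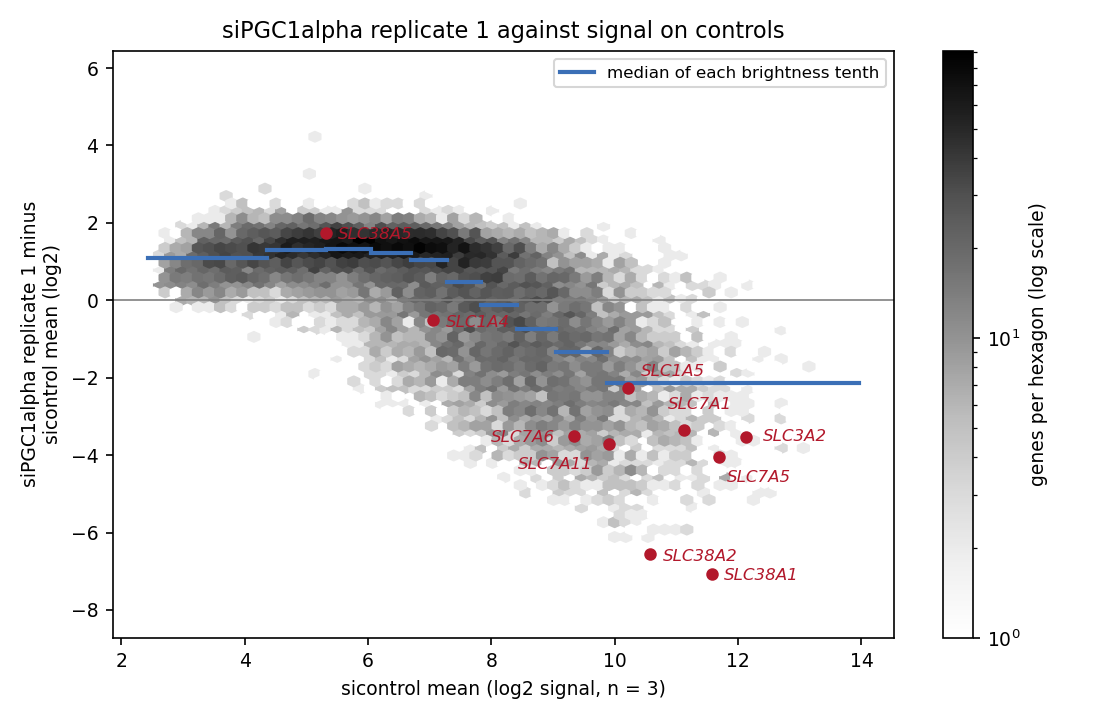
Difference of siPGC1alpha replicate 1 from the sicontrol mean against the sicontrol mean, both on the log2 scale, for 17687 genes (grey hexagons, shaded by the number of genes on a log scale) with the 10 transporters in red. Blue lines are the medians of 10 groups of equal size by brightness, which fall from 1.10 in the dimmest to -2.13 in the brightest group. SLC38A1 and SLC38A2 lie at the lower edge of the cloud.

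The genes whose pattern over the 6 arrays was nearest to that of 3 members were found by the root mean square distance between differences from each gene's own control mean. Nearest to SLC7A5 were UQCRC2, a complex III subunit (distance 0.019), G3BP1, a stress granule protein (0.023), and PHF3 (0.028). For SLC3A2 they were TOMM70, a mitochondrial import receptor (0.013), CCDC50 (0.018) and CCNA2, cyclin A2 (0.026). For SLC7A11 they were SLAIN2, a microtubule-associated protein (0.045), TPD52L2 (0.066) and STAG3L1 (0.070). On replicate 1 these 9 genes lay between -4.10 (G3BP1) and -3.50 (TOMM70), and that array dominates the measure.

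The other amino acid transporters differed from the 10 members mainly on replicate 1. Of 38 further transporter genes, 38 were measured and 26 read above the 95th percentile of the negative controls (68.4%, against 79.6% of all genes). Without replicate 1, 0 were higher and 0 lower by the test, with a median difference of -0.017, 16 above 0 and 22 below. At an unadjusted p under 0.05 there were 2, against 4.44% of all genes. Groups did not overlap for 7 with siPGC1alpha higher and 3 with it lower, against 11.3% and 8.42% of all genes. On replicate 1, 30 of the 38 lay above the control mean and 8 below (78.9% above, against 61.8% of all genes), with a median of 1.19, where the 10 members had a median of -3.51 and all genes 0.61. Their median control mean was 6.37 against 10.40 for the members, so the lists also differ in brightness, and its part was not tested.

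Close relatives of the members are given by value. SLC7A8 (LAT2), which shares the substrates of SLC7A5, had a control mean of 4.51 and a difference of -0.0013 (SE 0.094) without replicate 1. SLC43A1 and SLC43A2, leucine carriers that need no heavy chain, had 0.042 (SE 0.073) and -0.0036 (SE 0.099). SLC7A7 (y+LAT1), the sister of SLC7A6, had 0.18 (SE 0.092), and SLC3A1, the other heavy chain, had 0.21 (SE 0.11). The control mean of SLC3A1 (5.24) lay below the 95th percentile of the negative control probe sets. The cationic carriers SLC7A2 and SLC7A3 had -0.020 (SE 0.085) and -0.082 (SE 0.087), and SLC16A10, a carrier of aromatic amino acids, had 0.0095 (SE 0.094).

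In the glutamate branch of the SLC1 family, SLC1A3 had 0.20 (SE 0.082) and SLC1A1 had 0.18 (SE 0.077), and neither passed the test (limma adjusted p = 0.9998 for both). SLC1A1 was close to background on the controls (mean 4.23), where 22.4% of the negative control probe sets were brighter. SLC6A14, a broad carrier of neutral and cationic amino acids, had 0.18 (SE 0.14) at a control mean of 3.22, close to the negative control median of 3.34. SLC36A1 and SLC38A9, carriers of the lysosome of which the latter senses arginine for mTORC1, had -0.078 (SE 0.076) and -0.12 (SE 0.14), and SLC36A4 had -0.054 (SE 0.11). On replicate 1 SLC43A1, SLC36A1, SLC36A4 and SLC38A9 read below the controls as most members did, by -1.36, -0.86, -0.49 and -1.18, whereas SLC43A2, SLC7A8 and SLC7A7 read above, by 1.38, 1.90 and 1.70. SLC38A9 and SLC7A8 were close to background there, with 8.66% and 6.70% of the negative control probe sets brighter, as was SLC7A8 on the controls with 17.6%.

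**Figure D4:**
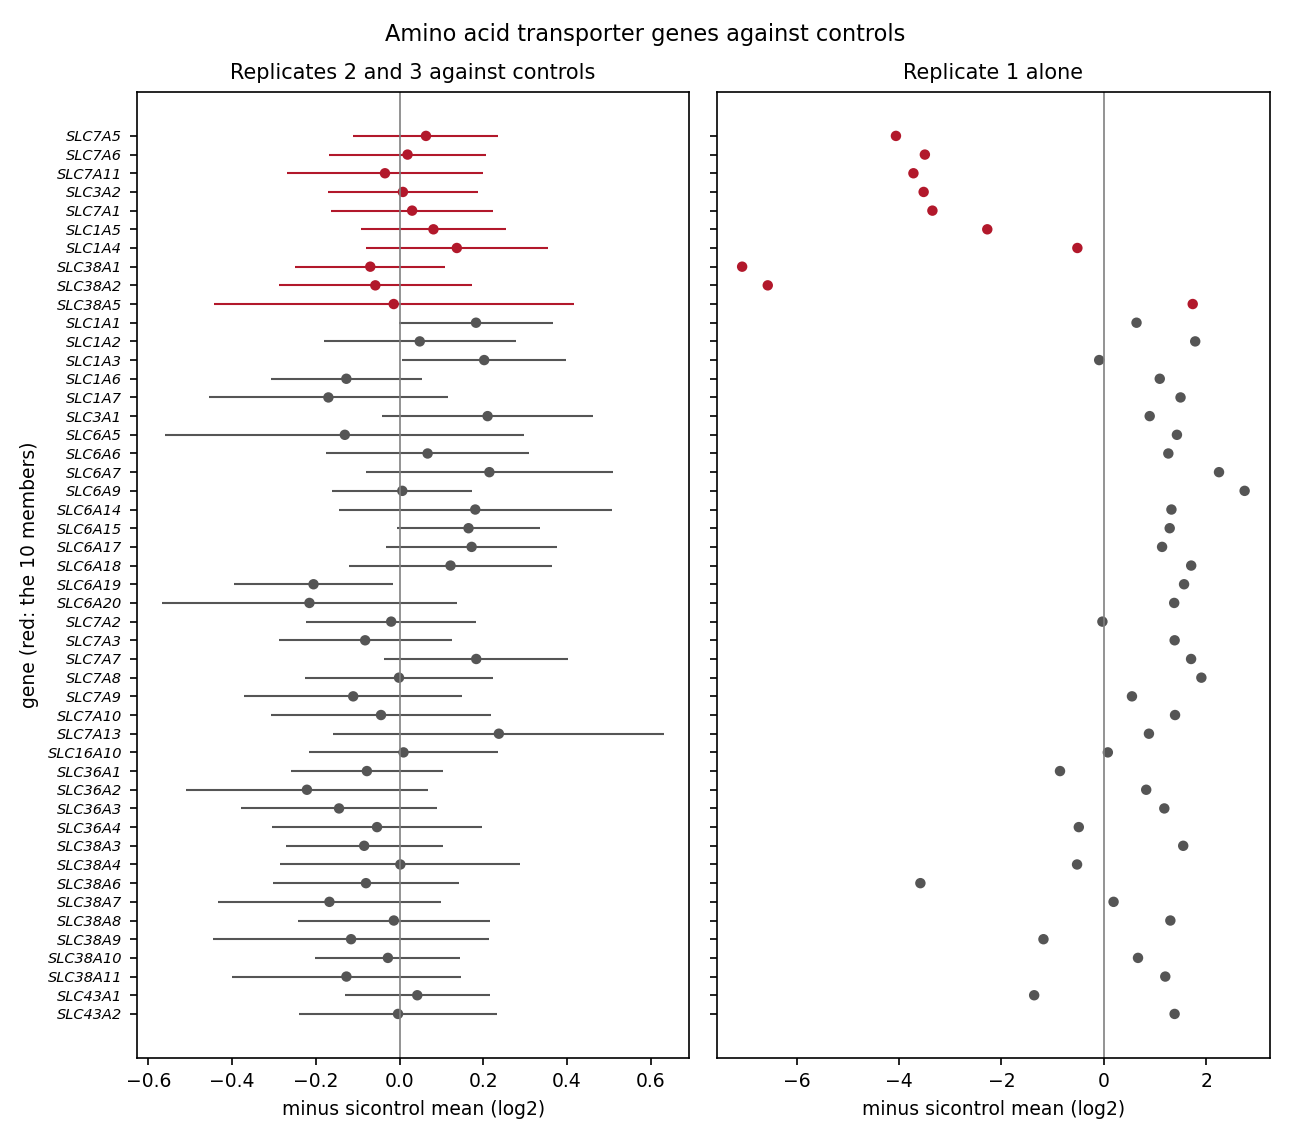
Differences from the sicontrol mean on the log2 scale for the 10 members (red) and 38 other amino acid transporter genes (grey). At left are replicates 2 and 3 against the controls with limma's 95% interval, and at right replicate 1 alone, as single values without an error. At left all points lie between -0.22 and 0.24, and at right 9 red points lie below 0 and 30 grey points above.

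Genes of the amino acid response, through which ATF4 raises several members when amino acids are short, read close to the controls without replicate 1. Of 26 listed genes 24 were measured, 0 were higher and 0 lower by the test, and the median difference was 0.047. Of the 24, 17 lay above 0 (70.8%, against 53.5% of all genes). Groups did not overlap for 7 with siPGC1alpha higher and 0 with it lower, against 11.3% and 8.42% of all genes, and 0 had an unadjusted p under 0.05. ATF4 itself had 0.089 (SE 0.073), and EIF2AK4 (GCN2), the kinase that senses uncharged tRNA, had 0.074 (SE 0.092). Of its targets, TRIB3 had 0.16 (SE 0.076), SESN2 0.20 (SE 0.089), PHGDH 0.058 (SE 0.071), PSAT1 0.033 (SE 0.070), ASNS -0.079 (SE 0.12) and CHAC1 -0.016 (SE 0.14). The transcription factors DDIT3 and CEBPB had -0.0070 (SE 0.091) and -0.0078 (SE 0.11). On replicate 1 the list had a median of -0.33, and ASNS lay at -4.11 and ATF4 at -2.85, whereas PSAT1 lay at -0.28 and CEBPB at 0.96. ASNS read at the level of background there (16.2% of the negative control probe sets were brighter), which limits how far its signal could fall.

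The genes of NRF2 and cystine use, which stand next to SLC7A11 in function, gave a like picture. Of 13 listed genes 12 were measured, with 0 higher and 0 lower and a median of 0.012 without replicate 1. Groups did not overlap for 4, all with siPGC1alpha higher, against 11.3% of all genes higher and 8.42% lower. NFE2L2, which encodes NRF2, had 0.094 (SE 0.081). GCLM and GCLC, the subunits of the rate-limiting enzyme of glutathione synthesis, had 0.20 (SE 0.10) and -0.0087 (SE 0.13). TXNRD1, HMOX1 and NQO1, further NRF2 targets, had 0.0016 (SE 0.081), -0.025 (SE 0.079) and 0.047 (SE 0.072). On replicate 1 NQO1 lay at -5.50 and HMOX1 at 1.72. NQO1 too read at the level of background there, with 20.3% of the negative control probe sets brighter.

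Of 28 genes by which mTORC1 senses amino acids 27 were measured, with 0 higher and 0 lower and a median of 0.022. Groups did not overlap for 6 with siPGC1alpha higher and 1 with it lower, against 11.3% and 8.42% of all genes. MTOR, the kinase itself, had -0.079 (SE 0.097). Among 15 regulators and users of the imported amino acids 11 were measured, with 0 higher and 0 lower and a median of -0.018. Of these 11, groups did not overlap for 2, both with siPGC1alpha higher, against the same shares of all genes. MYC had 0.083 (SE 0.074), CD44, a surface protein that stabilises SLC7A11, had -0.014 (SE 0.078), and NEDD4L, a ubiquitin ligase that acts on SLC38A2, had -0.053 (SE 0.12).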

How the data were processed

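The members, the gene lists and the tests were chosen with earlier results of these data known. Values were log2 signals per probe set, deposited by the authors as 1 normalized column per sample. The base was inferred from their range, and the authors' background correction, summarisation and normalization are not given in the sources used. Per the labels' protocols, 10 ng of total RNA was copied into cDNA and labelled with a low-input kit. Samples were grouped by title. The 6 columns of a further deposited table carry names that fit no sample and were left out. Of 24320 probe sets, 17709 had 1 gene symbol in GEO's platform annotation, 0 had several and 6611 had none. All 17709 gene identifiers matched RefSeq (GRCh38.p14). For 20 genes with several probe sets the one with the highest mean was kept, which left 17687 genes. No detection call was used, and the number of arrays limits the precision.

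Tests used limma 3.58.1 (lmFit, eBayes; R 4.3.3) over all genes, with Benjamini-Hochberg adjustment and a threshold of 0.05, once on 6 arrays and once without siPGC1alpha replicate 1. The code was tested on simulated data. Ratios were tested with SciPy 1.17.1 (exact permutation). Named genes were PPARGC1A, the members, 34 measured genes fixed from 5 lists and the 3 nearest genes of 3 members. Alternatives were quantile normalization, median centring, filters on dim genes, averaged probe sets, eBayes with trend and robust options, a replicate block, a threshold of 0.1 and leaving out each array.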

Additional observations from a re-analysis of the deposited data

Results flagged for a closer look

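Probe sets outside the gene comparison were brighter on siPGC1alpha replicate 1 than on the 3 controls. The 612 negative control probe sets had a median of 3.79 there, against 3.27 to 3.44 on the control arrays. For the 63 ERCC spike-ins the median was 6.50 there, against 5.04 to 5.11.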

How the results depend on the processing

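No member passed under any alternative run (0 of 10, and 0 genes over the whole table, in both fits). Filters on dim genes, averaged probe sets and the eBayes options leave a member's difference as it is by construction (each has 1 probe set), as does the replicate block on 6 arrays, so they bear on the calls alone. Over the 6 arrays the settings that could move a difference, quantile normalization and median centring, gave 20 values, and 20 kept their direction. When arrays were left out in turn, the median over the members ran from -1.76 to 0.014, and 7 members changed sign, all without siPGC1alpha replicate 1. Their ranges were -2.01 to 0.063 (SLC7A5), -1.76 to 0.019 (SLC7A6), -1.77 to 0.0080 (SLC3A2), -1.69 to 0.030 (SLC7A1), -1.10 to 0.081 (SLC1A5), -0.19 to 0.14 (SLC1A4) and -0.014 to 0.91 (SLC38A5). With replicate 1 left out throughout, those settings and the replicate block gave 30 values, and 27 kept their direction. SLC7A6 stood at -0.0011 with quantile normalization, and SLC38A2 at 0.0075 and SLC3A2 at -0.021 with the replicate block. In that fit number 1 holds sicontrol 1 alone, so the block gives the same differences as leaving out sicontrol 1. Why quantile normalization moved SLC7A6 was not tested. Leaving out a further array gave a median of -0.015 to 0.051 and changed the sign in SLC38A2 (-0.12 to 0.0075), SLC38A5 (-0.18 to 0.14), SLC3A2 (-0.021 to 0.033), SLC7A1 (-0.040 to 0.10), SLC7A11 (-0.12 to 0.047) and SLC7A6 (-0.016 to 0.058). The replicate numbers were not taken to pair the samples. Deviations of same-numbered arrays from their group means correlated across genes at -0.25, -0.18 and -0.086. Of the control arrays, 0 of 3 correlated best with their own number. The deviating replicate 1 weighs on these values, so they cannot decide whether the numbers pair the samples. Without replicate 1 the correlations were 0.093 for number 2 and -0.035 for number 3, and siPGC1alpha 2 correlated best with sicontrol 2. There 2 arrays deviate equally and oppositely by construction. The block left 0 genes called. At an unadjusted p under 0.05 it changed the number of genes from 786 to 1334 of 17687 without replicate 1. Over the 6 arrays that number went from 3 to 1, and 0 members were among them in either fit. SLC38A5 was removed by the 25th percentile filter, and it and SLC1A4 by the median filter. With 5 arrays the members' unadjusted intervals were 0.19 wide on each side in the median, so smaller differences were not detectable. After adjustment over all genes larger differences could also go uncalled. RRAGD, described below, differed by 0.33 and did not pass (limma adjusted p = 0.9998).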

Other observations

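Among the amino acid sensing genes of mTORC1, 3 of 27 had an unadjusted p under 0.05 without replicate 1, against 4.44% of all genes. They were named after their values were seen. RRAGD, a Rag GTPase, differed by 0.33 (SE 0.075), SESN1, of the leucine-sensing sestrin family, by 0.31 (SE 0.099) and WDR59, a subunit of GATOR2, by -0.32 (SE 0.081). None passed the test (limma adjusted p = 0.9998 for each). On replicate 1 they lay at -1.30, -0.28 and 0.10 from the control mean. On that array RRAGD and SESN1 were close to background, with 8.82% and 31.0% of the negative control probe sets brighter. SESN1 was close to background on the other arrays too. Its control mean was 4.81, with 12.9% of the negative control probe sets brighter, and replicates 2 and 3 read 5.04 and 5.19. These values lay below the 95th percentile of the negative control probe sets on the control arrays (5.36).

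Among the 38 other transporters, also named after their values were seen, the highest and lowest differences read on replicate 1 were those of SLC6A9, a glycine carrier, at 2.75 and SLC38A6 at -3.58. SLC38A6 read at the level of background there (22.7% of the negative control probe sets were brighter), so its difference is limited by background. Without replicate 1 these genes differed by 0.0065 (SE 0.070) and -0.080 (SE 0.093).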
